A study of Rattus norvegicus with 9 samples.

Results

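Fibroblasts cultured from the epineurium of the rat sciatic nerve (Fb-Epn) were compared with fibroblasts cultured from rat abdominal skin (Fb-Skn) by RNA sequencing. The comparison used 6 libraries, 3 of Fb-Epn and 3 of Fb-Skn, of the 9 in the series, and all 32883 genes of the deposited tables. The other 3 libraries, of fibroblasts from the nerve parenchyma (Fb-Par), are given as background, and they also entered the fit, where they shared the count filter, the scaling and the estimate of the spread. All cells were wild type and came from male Lewis rats of 10 weeks. Both tissues were dissociated in collagenase and trypsin, the cells were seeded in flasks without coating in medium with fetal bovine serum, the medium was replaced soon after seeding, and RNA was taken after 1 passage. The nerve cells came from 2 rats and the skin cells from 1 other rat. The 3 libraries of a type are therefore not 3 animals, and whether they were separate cultures is not stated in the sources used here, so every SD, SE and p-value below measures only the spread between these libraries. Tissue, rat and body site cannot be told apart in this comparison. No cell sorting was described, and each library is a bulk measurement of everything that adhered and grew.

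The epineurium is the outer collagenous sheath of a peripheral nerve, and its fibroblasts deposit fibrillar collagen around the fascicles and the vessels that supply them. Dermal fibroblasts build the collagen and elastic fibre network of the skin and exchange Wnt and BMP signals with the epidermis and hair follicles. Fibroblasts of different body regions are known to keep distinct sets of *Hox* and other patterning transcription factors in culture. In serum on plastic, fibroblasts of either source proliferate and take on contractile features. The study asked which molecular differences accompany a different effect of these cells on neurite growth.

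Levels are given as TPM (transcripts scaled to a fixed sum in each library, after reads are divided by gene length). Differences are given as log2 fold changes of Fb-Epn over Fb-Skn with their SE, and a value followed by SE is such a log2 fold change. They come from edgeR's quasi-likelihood F-test on the raw counts, with Benjamini-Hochberg adjustment over the 13273 genes tested. The test gives no SE, so the SE was computed as the absolute log2 fold change divided by the square root of the F statistic. For genes with few or no counts in a type this SE is approximate and can be smaller than the counting error. A gene is called higher or lower below when its adjusted p was under 0.01, and is a DE gene when its log2 fold change was also above 2 or below -2. Total counts ranged from 10084584 to 12310506 per library, and libraries of 1 type varied around each other with a common coefficient of 8.25%. In this comparison 5830 genes passed the adjusted p, which is 43.9% of those tested, with 3052 (23.0%) higher and 2778 (20.9%) lower in Fb-Epn. The split depended on the scaling, with 3715 higher and 2113 lower when only library size was used, and 3845 higher and 1731 lower with limma on log2(TPM + 1), where the median of all genes moved by 0.13. There were 1120 DE genes (8.44%), of which 826 (6.22%) were higher and 294 (2.22%) were lower. Many were at low levels, with a mean under 5 TPM in the higher type for 388 of the higher and 108 of the lower. Of the higher, 90 had 0 counts in all 3 Fb-Skn libraries, and of the lower, 13 had 0 counts in all 3 Fb-Epn libraries. Permuting 3 libraries against 3 exactly gives no two-sided p below 0.10 for any 1 gene, and 61.4% of the tested genes had no overlap between the libraries of the 2 types in TPM. Every count of list members below is to be read against these shares.

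**Figure D1:**
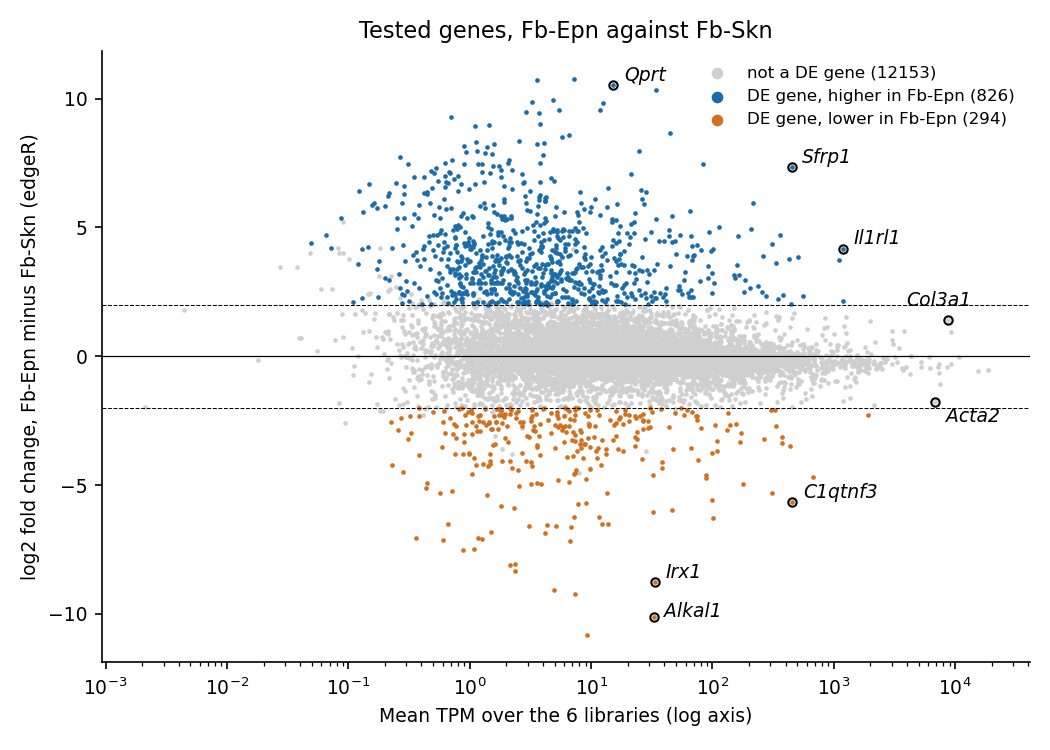
Each point is 1 of 13273 tested genes, with the mean TPM over the 6 libraries on the x axis (log scale) and the log2 fold change of Fb-Epn over Fb-Skn on the y axis, and dashed lines mark log2 fold changes of 2 and -2. The 826 higher and 294 lower DE genes are coloured, and *Sfrp1*, *Il1rl1* and *C1qtnf3* lie far from 0 at high mean levels.

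Genes that define fibroblasts were abundant in both types. Of the 15 genes listed as shared fibroblast genes, 14 were tested, with 6 higher and 7 lower in Fb-Epn, and their median log2 fold change was -0.19 against -0.0028 over all tested genes. *Col1a1*, the main chain of type I collagen, had a TPM of 16016, 15646 and 15944 in Fb-Epn and 20574, 21435 and 21224 in Fb-Skn, with a log2 fold change of -0.55 ± 0.017 (SE, edgeR adjusted p = 1.5e-12). *Col3a1*, the chain of the thinner type III fibrils, went the other way, with 12914, 13119 and 13039 in Fb-Epn and 4382, 4554 and 4471 in Fb-Skn (1.40 ± 0.025, SE). The libraries of the 2 types did not overlap for either collagen. *Thy1*, a surface glycoprotein used to mark fibroblasts, was the only DE gene of this list, at 717, 719.6 and 694 TPM in Fb-Epn and 3039, 3087 and 3158 in Fb-Skn, a log2 fold change of -2.26 ± 0.030 (SE, edgeR adjusted p = 1.5e-16). The receptor *Pdgfra* was higher in Fb-Epn by 0.77 ± 0.044 (SE) on the log2 scale, whereas *Pdgfrb* was lower (-1.05 ± 0.027, SE).

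Markers listed for epineurial and adventitial fibroblasts leaned towards Fb-Epn over Fb-Skn, with 10 higher and 2 lower of 13 tested. Of these, 7 were DE genes in the higher direction, and the median log2 fold change was 3.40. The summed TPM of the 14 markers found ran from 979 to 987 in Fb-Epn and from 454 to 487 in Fb-Skn. In Fb-Par it ran from 1060 to 1097, so this sum was not particular to Fb-Epn among the nerve cells. *Clec3b*, which encodes the plasminogen-binding protein tetranectin, stood at 131, 132 and 132 TPM in Fb-Epn and 7.58, 8.43 and 7.6 in Fb-Skn (3.92 ± 0.091, SE). *Cd34*, a sialomucin of adventitial stromal cells, was at 8.02, 7.59 and 8.15 TPM in Fb-Epn and 0.208, 0.238 and 0.118 in Fb-Skn. Both markers separated the types without overlap. *Pi16*, which marks fibroblasts thought to feed other fibroblast states, was higher by 1.61 ± 0.12 (SE) on the log2 scale. *Dpt*, the dermatopontin gene, was an exception with 0.849, 1.42 and 2.15 TPM in Fb-Epn and 21.1, 23 and 18.8 in Fb-Skn, a log2 fold change of -3.96 ± 0.19 (SE, edgeR adjusted p = 2.8e-10).

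Markers listed for dermal fibroblasts leaned the other way, with 1 higher and 9 lower of 12 tested and a median log2 fold change of -1.30. *Crabp1*, which binds retinoic acid in the cytoplasm, had a TPM of 15.6, 15.6 and 14.1 in Fb-Epn and 187, 181 and 183 in Fb-Skn (-3.74 ± 0.092, SE), while all Fb-Par libraries were at 0. *Ntn1*, the axon guidance molecule netrin 1, was at 26.9, 24 and 28.5 TPM in Fb-Epn and 114, 121 and 126 in Fb-Skn, a log2 fold change of -2.33 ± 0.077 (SE, edgeR adjusted p = 3.1e-12). *Twist2*, a transcription factor of the dermis, was also lower in Fb-Epn, at 49.3, 51.4 and 54.7 against 145, 132 and 151 TPM. The single higher member was *Dlk1*, an imprinted inhibitor of adipogenesis, with 9.29, 6.9 and 8.45 TPM in Fb-Epn and 0, 0.523 and 0 in Fb-Skn. Endoneurial markers were split, with 3 higher and 5 lower of 9 tested. Among these, *Sox9* was higher, at 94.5, 93.2 and 92.5 against 12.7, 15.4 and 14.5 TPM (2.58 ± 0.069, SE), and the Wnt inhibitor *Wif1* was lower, at 1.24, 1.41 and 3.16 against 24.7, 24.1 and 24.4. Perineurial markers gave 4 higher and 1 lower of 7 tested, led by *Msln* with 42.5, 39.5 and 49.5 TPM in Fb-Epn and 1.34, 1.93 and 1.05 in Fb-Skn, while *Cldn1* and *Krt19* had at most 0.181 and 0.133 TPM in any of the 6 libraries.

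Transcription factors that mark body position differed by region. Of 39 listed, 19 were tested, with 4 higher and 15 lower in Fb-Epn, with a median log2 fold change of -2.71. The 2 hind limb factors that were tested were both higher. Posterior *Hox* genes were split, with 2 higher and 5 lower of 7 tested and a median log2 fold change of -1.51. All 8 tested middle and both tested anterior *Hox* genes were lower. *Hoxc11*, a posterior *Hox* gene, was at 23.7, 25.8 and 26 TPM in Fb-Epn and had 0 counts in every Fb-Skn library, at least 105-fold higher against a floor of 3 counts over the 3 libraries. *Pitx1*, which specifies the hind limb, had a TPM of 10.8, 8.37 and 8.48 in Fb-Epn and 0.163, 0 and 0 in Fb-Skn, a count ratio of 141 with a 95% counting interval of 38.6 to 1166. *Hoxc10* was present in both, at 45.1, 47.5 and 56.5 TPM in Fb-Epn and 15.5, 17.3 and 19 in Fb-Skn (1.39 ± 0.10, SE). The libraries of the 2 types did not overlap for these 3 genes, and in Fb-Par the means of *Hoxc11* and *Hoxc10* were 18.5 and 64 TPM. In the opposite direction, *Hoxb9*, another posterior *Hox* gene, had 0 counts in every Fb-Epn and Fb-Par library. It was at 11.8, 15.7 and 16.9 TPM in Fb-Skn and at least 79.6-fold lower in Fb-Epn. *Hoxb3* was at 0.372, 0.494 and 0.0921 TPM in Fb-Epn and 25.1, 21.8 and 22.1 in Fb-Skn, a log2 fold change of -6.24 ± 0.33 (SE, edgeR adjusted p = 6.8e-10). *Hoxb2* showed the same order, with 0.186, 0.825 and 1.11 against 25.3, 24.6 and 29.9 TPM.

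Of 47 tested mesenchymal transcription factors outside the *Hox* clusters, 22 were higher and 20 were lower, and 22 of the 47 were DE genes (12 higher, 10 lower). *Irx1*, an Iroquois homeobox gene, was at 0.255, 0.15 and 0.0839 TPM in Fb-Epn and 65.7, 69.2 and 67.5 in Fb-Skn, a log2 fold change of -8.75 ± 0.16 (SE, edgeR adjusted p = 1.8e-13). Its neighbour in the family, *Irx2*, was lower as well, at 2.52, 3.46 and 2.35 against 60.5, 55.6 and 69.5 TPM. *Tbx5*, a T-box factor of the forelimb and heart, stood at 0.114, 0.0503 and 0.0562 TPM in Fb-Epn and 7.39, 9.06 and 8.57 in Fb-Skn. None of these 3 genes exceeded 3.46 TPM in any Fb-Epn library. Higher in Fb-Epn were *Ebf2*, a factor of early fat and vascular mural cells, at 15.6, 15.2 and 17.1 against 0.169, 0.232 and 0.115 TPM (6.36 ± 0.14, SE), and the zinc finger factor *Gata6* at 16.7, 16.2 and 16.7 against 0.425, 0.682 and 0.29. The nuclear receptor *Nr2f1* was at 32.9, 35.7 and 29.2 TPM in Fb-Epn and 1.74, 0.876 and 1.26 in Fb-Skn.

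**Figure D2:**
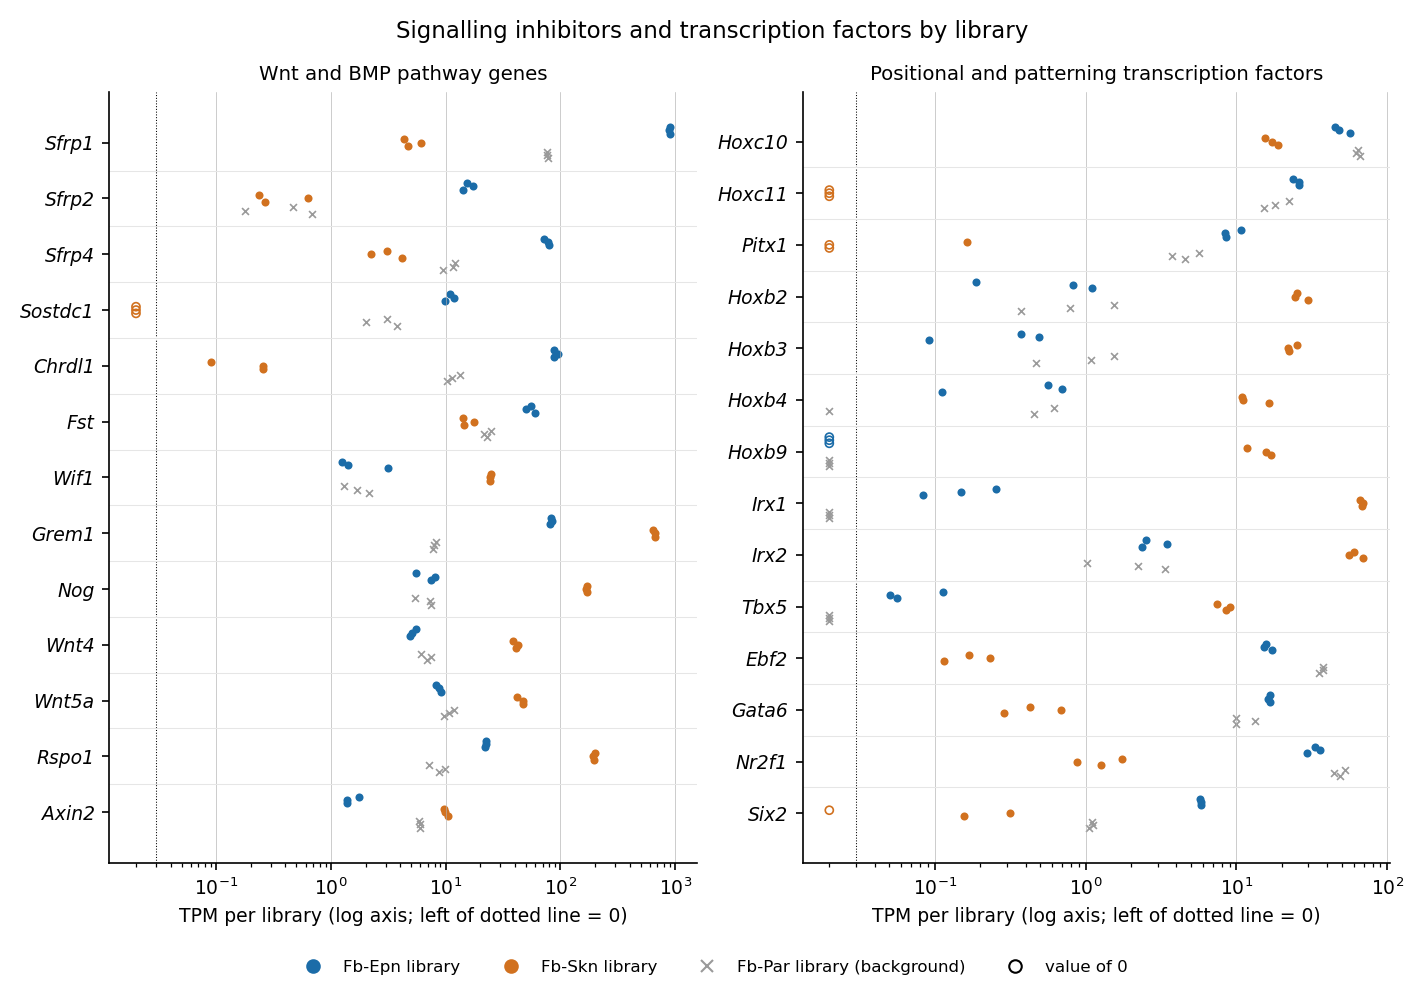
Each point is the TPM of 1 library on a log axis for Wnt and BMP pathway genes (left) and transcription factors (right), in Fb-Epn (blue), Fb-Skn (orange) and, as background, Fb-Par (grey crosses), with values of 0 drawn left of the dotted line. *Sfrp1* and *Chrdl1* lie to the right in Fb-Epn, *Nog* and *Irx1* lie to the right in Fb-Skn, and the libraries of Fb-Epn and Fb-Skn do not overlap for any gene drawn.

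Markers of other cell types were checked because no sorting was described. The study also labelled these cultures with antibodies to fibroblast, Schwann cell and endothelial proteins, which was not analysed here. Fewer cells of a type and less RNA per cell cannot be told apart in bulk libraries. Schwann cells are the glia of peripheral nerve, and 15 of 17 tested Schwann cell markers were higher in Fb-Epn, with none lower. *Sox10*, the defining transcription factor of the lineage, had a TPM of 13.9, 15 and 14.8 in Fb-Epn and 0 counts in Fb-Skn, and *Erbb3*, the neuregulin receptor, had 7.08, 6.83 and 7.4 and 0. Both genes were higher still in Fb-Par, with means of 30.9 and 15.6 TPM. The summed TPM of the 21 Schwann cell markers found ran from 1018 to 1050 in Fb-Epn and from 503 to 532 in Fb-Skn, a sum to which *Ncam1* and *Pmp22*, which fibroblasts also express, contributed most.

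Macrophages reside in the epineurium and in the dermis, and 16 of 17 tested macrophage and leukocyte markers were DE genes higher in Fb-Epn, with none lower and a median log2 fold change of 3.82. *Lyz2*, lysozyme 2, was at 962, 930.4 and 979 TPM in Fb-Epn and 58, 61.8 and 62 in Fb-Skn, a log2 fold change of 3.84 ± 0.043 (SE, edgeR adjusted p = 2.9e-17). *Cd68*, a lysosomal marker of macrophages, stood at 147, 152 and 161 against 8.58, 8.47 and 6.55 TPM. *Ptprc*, the pan-leukocyte gene, was at 5.83, 5.44 and 6.12 TPM in Fb-Epn and 0.545, 0.333 and 0.206 in Fb-Skn. None of these 3 genes overlapped between the types. The summed TPM of the 20 markers found ran from 1557 to 1652 in Fb-Epn and from 107 to 113 in Fb-Skn, while the T cell genes *Cd3e* and *Cd3d* and the B cell gene *Ms4a1* were at 0 in all 6 libraries. These markers were higher in the same libraries as the chemokine, cytokine and complement genes described below, and their part in those results was not tested.

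Endothelial markers were low in both types, with 6 higher and 2 lower of 9 tested and a summed TPM from 44.1 to 48.1 in Fb-Epn and from 31.5 to 40.5 in Fb-Skn. *Cdh5*, the endothelial cadherin, was at 1.73, 1.79 and 1.81 TPM in Fb-Epn and 0 in Fb-Skn, and *Tie1* was at 3.79, 4.78 and 4 TPM in Fb-Epn and 0, 0.0459 and 0 in Fb-Skn, a count ratio of 262 with a 95% counting interval of 46.7 to 10388. The 2 lower members were *Flt1* and *Egfl7*, with log2 fold changes of -1.15 and -0.71. *Pecam1*, also on the list, could not be matched to a counted gene. Pericyte and vascular smooth muscle markers differed in direction, with 5 higher and 4 lower of 9 tested and a summed TPM from 324 to 335 in Fb-Epn and from 810 to 833 in Fb-Skn. The pericyte genes *Rgs5* (3.65, 6.46 and 3.37 TPM in Fb-Epn) and *Kcnj8* (1.02, 1.19 and 1.09 TPM) had 0 counts in Fb-Skn. The smooth muscle genes *Myh11* and *Cnn1* were lower in Fb-Epn, with log2 fold changes of -2.48 ± 0.045 and -1.42 ± 0.036 (SE), and so were the pericyte genes *Cspg4* (-1.78 ± 0.079, SE) and *Mcam* (-1.26 ± 0.043, SE). The muscle gene *Des*, desmin, was higher at a low level, at 1.19, 1.05 and 1.9 TPM in Fb-Epn and 0.169, 0.193 and 0 in Fb-Skn. The keratinocyte genes *Krt1*, *Krt15* and *Dsg3* were at 0 in all 6 libraries, *Krt14* had 0.887 to 1.46 TPM in Fb-Skn and 0 in Fb-Epn, and 1 of 3 tested keratinocyte markers was higher and 1 lower. The summed TPM of the keratinocyte list ran from 9.27 to 9.73 in Fb-Epn and from 10.1 to 14.9 in Fb-Skn, and that of the adipocyte list from 142 to 162 in Fb-Epn and from 90 to 95.3 in Fb-Skn. Of 8 mast cell markers 1 was tested and was a DE gene higher in Fb-Epn, with a log2 fold change of 4.59, and of the rest 5 were at 0 in all 6 libraries. The summed TPM of the mast cell list ran from 1.25 to 1.87 in Fb-Epn and from 0.832 to 1.47 in Fb-Skn. Adipocyte markers gave 3 higher and 1 lower of 5 tested, melanocyte markers 2 higher and none lower of 3, and skeletal muscle markers 3 higher and none lower of 3, with *Myod1*, *Myf5*, *Pax7* and *Myog* at 0 in all 6 libraries.

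**Figure D3:**
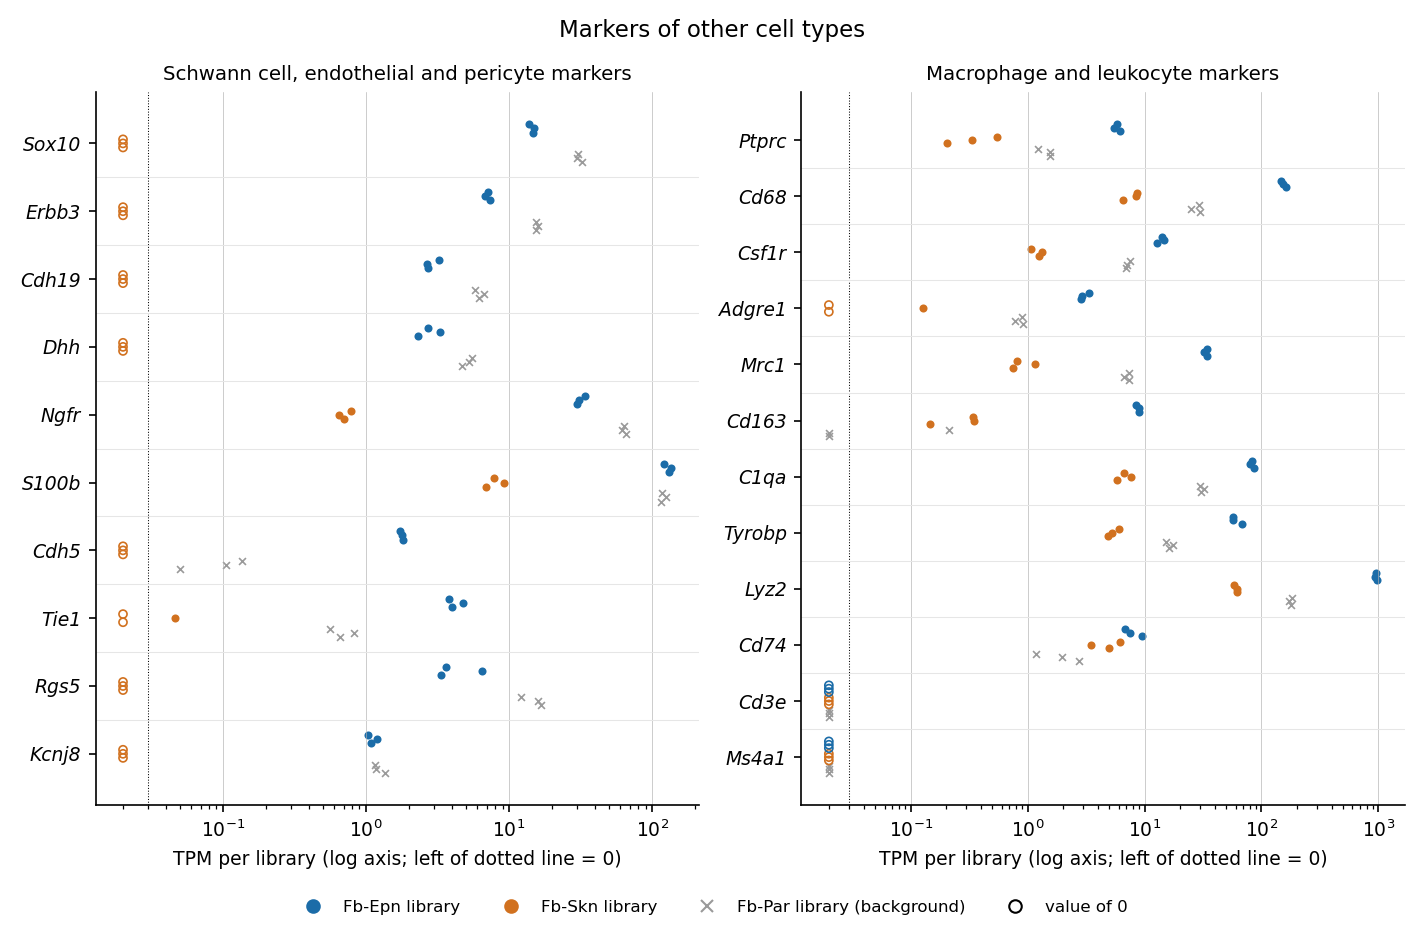
Each point is the TPM of 1 library on a log axis for markers of Schwann cells, endothelial cells and pericytes (left) and of macrophages and other leukocytes (right), coloured by type, with values of 0 left of the dotted line and Fb-Par as background. *Sox10* and *Erbb3* are at 0 in Fb-Skn, *Lyz2* and *Cd68* are higher in Fb-Epn without overlap, and *Cd3e* and *Ms4a1* are at 0 throughout.

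Among DE genes with a mean of at least 20 TPM in the higher type (177 higher and 90 lower), the 12 that changed most by their estimate in either direction were singled out. *Qprt*, an enzyme that makes NAD from tryptophan breakdown products, was at 27.5, 31.9 and 32.1 TPM in Fb-Epn and had 0 counts in Fb-Skn, at least 167-fold higher. *Dio3*, which inactivates thyroid hormone, was at 68.2, 67.8 and 68.7 TPM in Fb-Epn and had 1 count in a single Fb-Skn library, a count ratio of 1726 with a 95% counting interval of 309 to 68187. *Fgf5*, a fibroblast growth factor known from the hair cycle, was at 22.9, 27.7 and 19.9 TPM in Fb-Epn and 0 in Fb-Skn, at least 85.9-fold higher. These genes were also found in Fb-Par, with means of 20.3, 5.52 and 45.5 TPM. *Serpinb1a*, an inhibitor of neutrophil proteases, had 57.3, 58.2 and 51.9 TPM in Fb-Epn and 0.44, 0.672 and 0.666 in Fb-Skn (6.39 ± 0.19, SE). *Fabp4*, a fatty acid carrier of adipocytes and macrophages, had 43.9, 52.6 and 57.8 TPM in Fb-Epn and 0.55, 0.63 and 0.312 in Fb-Skn. *Smoc1*, a calcium-binding basement membrane protein, was at 41.3, 43 and 43.3 TPM in Fb-Epn and 0, 0.61 and 0.242 in Fb-Skn, and its mean was higher again in Fb-Par, at 569 TPM.

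The DE genes lower in Fb-Epn included a ligand, a matrix protein and a neuronal protein. *Alkal1*, a ligand of the receptor tyrosine kinases ALK and LTK (ENSRNOG00000048703, chromosome 5 of rn6 from 12896558 to 12925571), had 0 counts in every Fb-Epn library and 63.6, 64.6 and 68.9 TPM in Fb-Skn, at least 146-fold lower in Fb-Epn. *C1qtnf3*, a secreted protein of the C1q and TNF family, was at 18.9, 22.2 and 17.3 TPM in Fb-Epn and 884, 902 and 891 in Fb-Skn, a log2 fold change of -5.65 ± 0.063 (SE, edgeR adjusted p = 2.8e-17). *Stmn2*, which destabilises microtubules in growing neurites, was at 15.6, 17.4 and 16.5 TPM in Fb-Epn and 615, 595 and 580.1 in Fb-Skn. The Fb-Skn libraries were high for all 3 genes with no overlap. *Egfl6*, a matrix protein of the hair follicle region, had 2.55, 3.05 and 2.82 TPM in Fb-Epn and 203, 194 and 202 in Fb-Skn (-6.29 ± 0.10, SE). *Bcl11b*, a zinc finger repressor, had 0.343, 0.182 and 0.373 TPM in Fb-Epn and 24.1, 24 and 25.4 in Fb-Skn. *Rgs7*, a regulator of G protein signalling, *Casq2*, a calcium store protein of muscle, and *Prima1*, the membrane anchor of acetylcholinesterase, were lower, with log2 fold changes of -6.51 ± 0.24, -6.06 ± 0.15 and -5.96 ± 0.12 (SE).

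**Figure D4:**
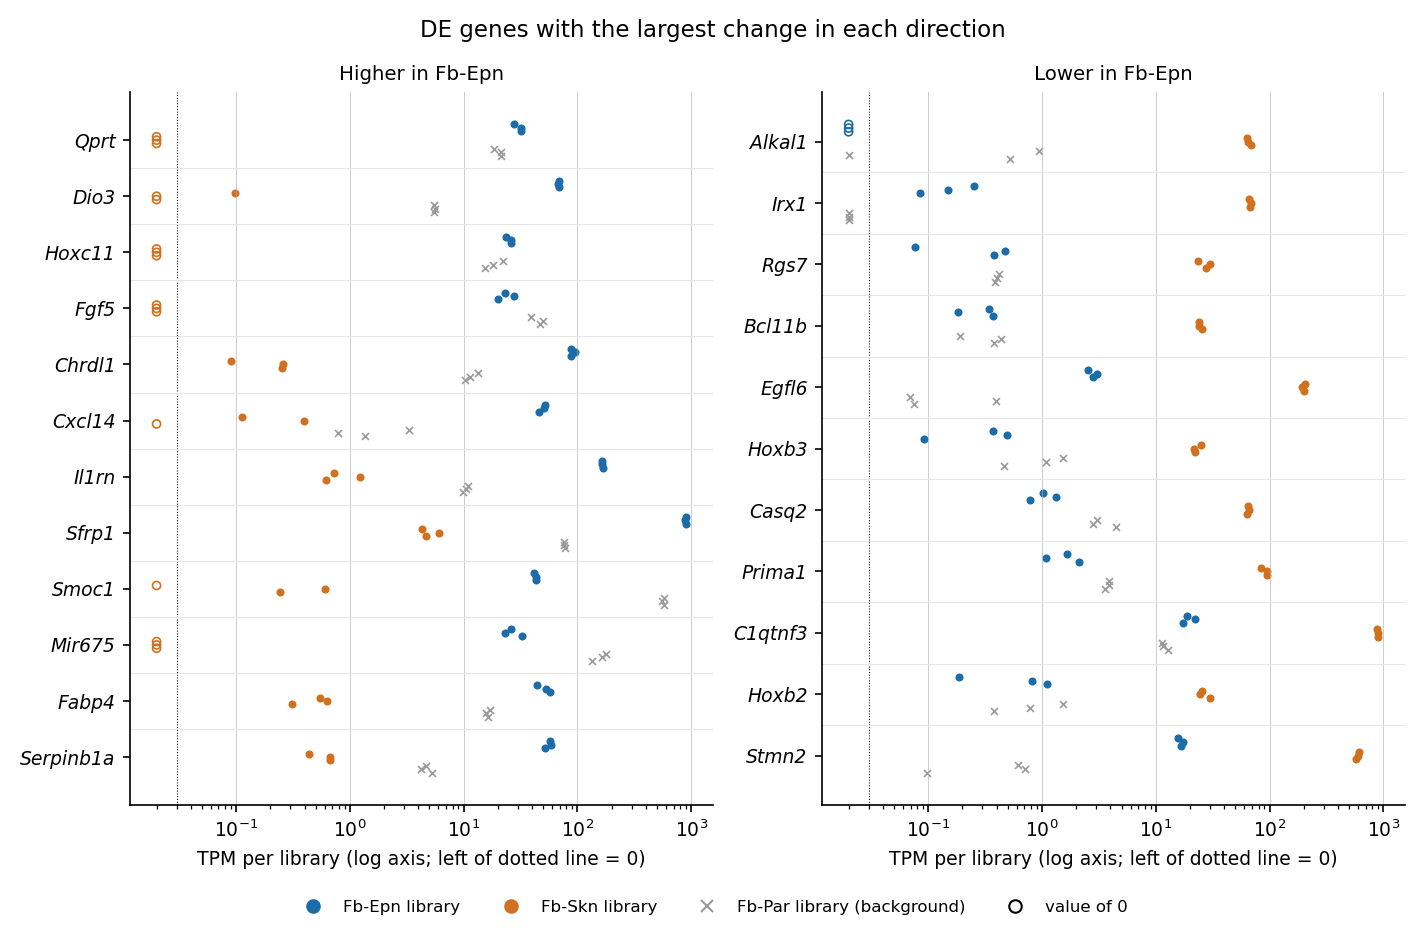
The DE genes with the largest estimated log2 fold change, 12 higher and 11 lower in Fb-Epn among those with a mean of at least 20 TPM in the higher type, are drawn as the TPM of each library on a log axis, with values of 0 left of the dotted line and Fb-Par as background. For every gene drawn, the 3 Fb-Epn libraries and the 3 Fb-Skn libraries lie apart.

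The higher genes included *Mir675*, which lies within the *H19* transcript (ENSRNOG00000040350, chromosome 1 of rn6 from 215745981 to 215746064). It had 11 to 14 counts per Fb-Epn library, or 26.1, 23.1 and 32.8 TPM, and 0 counts in Fb-Skn, at least 10.3-fold higher, with a mean of 159 TPM in Fb-Par. Poly(A) libraries do not measure mature miRNA, so these counts are reads over the locus. The mature sequences from RefSeq (GRCr8) are shown because the seed, bases 2 to 8 in capitals, is what pairs with target transcripts, and the 2 arms have different seeds.
rno-miR-675-5p: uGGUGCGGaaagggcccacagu
rno-miR-675-3p: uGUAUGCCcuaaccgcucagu

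Wnt signalling acts through secreted ligands, Frizzled and Lrp receptors and nuclear targets such as *Axin2*, and secreted proteins such as SFRPs bind and block the ligands. The 41 tested Wnt pathway genes split into 14 higher and 21 lower ones in Fb-Epn, with a median log2 fold change of -0.62. Of 10 tested ligands 1 was higher and 7 were lower, of 6 tested targets 1 was higher and 5 were lower, of 16 receptors 7 were higher and 5 lower, and of 9 secreted inhibitors 5 were higher and 4 lower. *Wnt4* was at 5.54, 5.11 and 4.87 TPM in Fb-Epn and 38.6, 42.5 and 41.1 in Fb-Skn, a log2 fold change of -3.12 ± 0.077 (SE, edgeR adjusted p = 1.1e-13). *Wnt5a*, a ligand that mostly signals without beta-catenin, was at 8.17, 8.75 and 9.02 against 41.4, 46.9 and 47.6 TPM. *Rspo1*, which strengthens Wnt signals through Lgr receptors, was at 22.5, 22.3 and 22.1 TPM in Fb-Epn and 198, 192 and 197 in Fb-Skn (-3.27 ± 0.071, SE). These ligands and the enhancer were lower in every Fb-Epn library than in every Fb-Skn library, and so was the target *Axin2*, at 1.75, 1.37 and 1.38 against 9.75, 9.91 and 10.4 TPM.

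*Sfrp1*, the most abundant of the 9 tested secreted Wnt inhibitors in Fb-Epn (ENSRNOG00000017783, chromosome 16 of rn6 from 73372007 to 73410777), had a TPM of 892, 881 and 903 in Fb-Epn and 4.34, 6.1 and 4.71 in Fb-Skn, a log2 fold change of 7.33 ± 0.062 (SE, edgeR adjusted p = 2.2e-18). Its mean in Fb-Par lay between, at 76.7 TPM. *Sfrp4* was at 72.5, 78 and 79.1 TPM in Fb-Epn and 3.08, 2.24 and 4.13 in Fb-Skn, and *Sfrp2* at 15.2, 17.4 and 14.2 in Fb-Epn and 0.235, 0.628 and 0.267 in Fb-Skn. All 3 SFRP genes were higher in each Fb-Epn library, but 4 of the 9 inhibitors were lower. The Wnt inhibitor *Wif1*, given above, was lower in Fb-Epn. *Sostdc1*, which binds both Wnt receptors and BMPs, was at 10.8, 11.8 and 9.82 TPM in Fb-Epn with 0 counts in Fb-Skn, at least 86.8-fold higher. *Lgr5*, a receptor for R-spondins, was at 5.66, 5.4 and 7.42 TPM in Fb-Epn and 0.234, 0 and 0.0666 in Fb-Skn.

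BMPs are signalling proteins of the TGF-beta family that are held in check by extracellular antagonists. Of 43 tested genes of the TGF-beta, BMP and activin pathways 14 were higher and 16 were lower, with a median log2 fold change of 0.012. Of the 16 inhibitors and targets 3 were higher and 9 were lower, and the antagonists differed in direction. *Chrdl1* was at 87, 94.6 and 87.8 TPM in Fb-Epn and 0.0894, 0.256 and 0.254 in Fb-Skn, a log2 fold change of 8.67 ± 0.16 (SE, edgeR adjusted p = 4.4e-15). *Nog*, noggin, was lower, at 5.5, 8.12 and 7.5 against 170.2, 167 and 169.9 TPM, a log2 fold change of -4.71 ± 0.11 (SE, edgeR adjusted p = 4.4e-14). *Grem1*, gremlin 1, was abundant in Fb-Skn, at 635, 671 and 670.1 TPM, and stood at 83.1, 84.4 and 81.6 in Fb-Epn. Thus *Chrdl1* was near 0 in Fb-Skn, and *Nog* and *Grem1* were several-fold higher there. *Fst*, which binds activins, was higher in Fb-Epn by 1.70 ± 0.12 (SE), and the BMP target *Id4* was lower (-2.03 ± 0.080, SE). *Tgfbr3*, the TGF-beta co-receptor betaglycan, was at 69, 65.5 and 64.8 TPM in Fb-Epn and 12.4, 12.1 and 12.5 in Fb-Skn.

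Hedgehog and Notch genes gave 11 higher and 3 lower of 20 tested. The Notch ligand *Jag1* was at 18.5, 18.8 and 19.1 TPM in Fb-Epn and 76.3, 81.3 and 78.8 in Fb-Skn, and the Notch target *Hes1* at 25.9, 25 and 31.4 in Fb-Epn and 122, 127 and 118 in Fb-Skn, both DE genes lower in Fb-Epn. Of the Notch genes 5 were higher and 3 lower of 11 tested, and among the higher were the receptors *Notch3* (1.91 ± 0.14, SE) and *Notch2* (0.48 ± 0.041, SE). Of the hedgehog genes 6 of 9 were higher and none was lower, with *Gli3* higher by 0.84 ± 0.11 (SE) and the co-receptor *Cdon* by 1.01 ± 0.067 (SE).

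Retinoid and lipid handling genes gave 21 higher and 8 lower of 35 tested, with a median log2 fold change of 0.92, or 0.82 with genes at 0 in a type set to their bound. Retinoic acid is made from vitamin A by the ALDH1A enzymes. *Aldh1a2* was at 54.9, 49.8 and 52.1 TPM in Fb-Epn and 0.569, 0.838 and 0.646 in Fb-Skn, a log2 fold change of 6.10 ± 0.13 (SE, edgeR adjusted p = 1.8e-14). *Aldh1a3* was at 8.7, 8.9 and 7.85 TPM in Fb-Epn and 0.271, 0 and 0 in Fb-Skn, and the retinol carrier *Rbp4* at 9.94, 6.93 and 7.74 TPM with 0 counts in Fb-Skn. Both enzymes and the carrier were higher in each Fb-Epn library, while the retinoic acid-binding *Crabp1*, described above, was lower.

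Matrix genes were split. Of 31 tested collagens 10 were higher and 13 were lower (median log2 fold change -0.16), of 17 laminin and basement membrane genes 8 and 7, of 38 matricellular and elastic fibre genes 18 and 14, and of 11 small leucine-rich proteoglycans 4 and 2. *Col14a1*, a collagen on the surface of type I fibrils, was at 480.3, 497 and 491 TPM in Fb-Epn and 27.9, 31.9 and 31.1 in Fb-Skn, a log2 fold change of 3.88 ± 0.046 (SE, edgeR adjusted p = 4.8e-17). *Col12a1*, its close relative, was at 986, 1044 and 903 in Fb-Epn and 3025, 3506 and 3405 in Fb-Skn, a log2 fold change of -1.90 ± 0.051 (SE, edgeR adjusted p = 3.0e-13). The 2 fibril-associated collagens thus differed in opposite directions without overlap. *Col8a2* and *Col4a5*, network collagens, were lower, with log2 fold changes of -1.79 ± 0.034 and -1.62 ± 0.054 (SE). In the basement membrane list, *Nid2*, which links laminin to type IV collagen, was at 72.4, 71.9 and 73 TPM in Fb-Epn and 665, 681 and 686 in Fb-Skn. *Egflam*, pikachurin, a ligand of dystroglycan, was at 12.2, 12.9 and 11.4 TPM in Fb-Epn and 339.8, 354 and 344 in Fb-Skn (-4.97 ± 0.047, SE), while dystroglycan itself, *Dag1*, was higher in Fb-Epn by 1.13 ± 0.029 (SE) and the endoneurial laminin chain *Lama2* by 1.18 ± 0.068 (SE).

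*Mgp*, which keeps matrix from calcifying, was at 2045, 2061 and 2034 TPM in Fb-Epn and 141, 133 and 144 in Fb-Skn, a log2 fold change of 3.73 ± 0.037 (SE, edgeR adjusted p = 6.7e-18). *Spp1*, osteopontin, was at 442, 449.7 and 438 TPM in Fb-Epn and 67.8, 74.2 and 71.5 in Fb-Skn, and both genes were higher again in Fb-Par, with means of 9619.6 and 2149. *Thbs4*, a thrombospondin of tendon and nerve, was at 25.5, 28.3 and 26.3 TPM in Fb-Epn and 0.285, 0.783 and 0.259 in Fb-Skn. *Fbln5*, which assembles elastic fibres, was lower, at 96.5, 95.1 and 94.8 against 563, 562 and 576 TPM (-2.71 ± 0.035, SE), and *Ltbp1*, which stores latent TGF-beta in the matrix, was lower (-1.83 ± 0.039, SE).

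Matrix proteases and their inhibitors gave 16 higher and 12 lower of 33 tested. *Adamts5*, a protease of aggrecan and versican, was at 116, 119.9 and 112 TPM in Fb-Epn and 7.04, 6.94 and 7.28 in Fb-Skn, a log2 fold change of 3.89 ± 0.060 (SE, edgeR adjusted p = 7.6e-16). *Timp3*, a matrix-bound inhibitor of such proteases, was at 32, 31.9 and 35.5 in Fb-Epn and 286, 318 and 313 in Fb-Skn, a log2 fold change of -3.35 ± 0.050 (SE, edgeR adjusted p = 5.5e-16). The protease was therefore higher and the inhibitor lower in each Fb-Epn library. *Mmp3*, stromelysin 1, was lower, at 1.86, 0.413 and 0.691 against 17, 20.8 and 17.4 TPM. *Serpine2*, a thrombin inhibitor with known neurite-promoting activity, was at 88.9, 95.3 and 98.1 TPM in Fb-Epn and 4.53, 5.58 and 6.12 in Fb-Skn (3.99 ± 0.092, SE).

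Contractile genes were mostly lower in Fb-Epn, with 5 higher and 16 lower of 24 tested and a median log2 fold change of -0.70. *Acta2*, the smooth muscle actin of myofibroblasts, was at 3354, 3243 and 3475 TPM in Fb-Epn and 10107, 10269 and 10544 in Fb-Skn, a log2 fold change of -1.76 ± 0.025 (SE, edgeR adjusted p = 4.1e-16). *Tpm2*, a tropomyosin, was at 695, 718 and 701 TPM in Fb-Epn and 2077, 1998 and 1894 in Fb-Skn. *Myocd*, the co-activator that drives smooth muscle genes, was at 1.88, 2.08 and 2.24 TPM in Fb-Epn and 12.2, 15.2 and 15.8 in Fb-Skn. These 3 genes were low in all Fb-Epn libraries relative to Fb-Skn. *Mylk*, myosin light chain kinase, went the other way, at 20, 21.9 and 19.3 against 2.88, 2.33 and 3.15 TPM (2.73 ± 0.084, SE).

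Chemokines attract leukocytes, and fibroblasts as well as macrophages secrete them. Of 32 chemokine ligands 16 were tested, 15 were higher in Fb-Epn and none was lower, with a median log2 fold change of 3.27. *Cxcl12*, the stromal ligand of CXCR4, was at 305, 306 and 320.2 TPM in Fb-Epn and 9.64, 11.1 and 12.5 in Fb-Skn, a log2 fold change of 4.67 ± 0.075 (SE, edgeR adjusted p = 1.0e-15). *Cxcl14* was at 51.4, 50.7 and 45.5 TPM in Fb-Epn and 0.114, 0.391 and 0 in Fb-Skn. *Ccl9* and *Ccl6*, both made by rodent myeloid cells, were at 29.3, 33.2 and 33.8 and 13.8, 13.2 and 11.3 TPM in Fb-Epn and at most 0.801 in any Fb-Skn library. No Fb-Skn library reached the Fb-Epn level for any of these 4 ligands, and the macrophage markers given above were higher in the same libraries.

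A form of the NF-kappaB site, with 1 free position, was searched on both strands in the RefSeq promoters (GRCr8), each running from 250 bases before to 50 after a start site. It was found in 2 of the 25 chemokine promoters matched by symbol and in 102 of all 27457 promoters (0.371%). The 2 genes, *Cxcl1* and *Cxcl6*, both on chromosome 14, were named after their values were seen. *Cxcl1* was at 24.9, 25.1 and 26.6 TPM in Fb-Epn and 14.9, 11.3 and 12.2 in Fb-Skn (0.85 ± 0.18, SE), and *Cxcl6* at 2.33, 3.69 and 3.88 in Fb-Epn and 0, 0.259 and 0.642 in Fb-Skn. The 150 bases before each start site are shown with the matching letters in capitals, where a match is a description and not a site of binding.
Cxcl1 (chr14:17479322-17479471, minus strand): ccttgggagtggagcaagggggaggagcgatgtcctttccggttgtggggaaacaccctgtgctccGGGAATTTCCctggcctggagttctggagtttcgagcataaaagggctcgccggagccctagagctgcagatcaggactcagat
Cxcl6 (chr14:17596418-17596567, minus strand): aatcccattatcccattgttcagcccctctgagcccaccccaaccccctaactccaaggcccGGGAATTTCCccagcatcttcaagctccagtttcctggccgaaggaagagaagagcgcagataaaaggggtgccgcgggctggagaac

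Cytokines of the IL1 family signal danger and are controlled by decoys and antagonists. Of 36 tested interleukin, IL6 family and receptor genes 19 were higher and 10 were lower, with 10 higher and 1 lower of the 12 IL6 family genes and 6 higher and 4 lower of the 10 IL1 family genes. *Il1rl1*, the receptor of IL33 that is also secreted as a decoy, was at 2227, 2276 and 2277 TPM in Fb-Epn and 111, 116 and 113 in Fb-Skn, a log2 fold change of 4.18 ± 0.029 (SE, edgeR adjusted p = 3.2e-19). Its ligand *Il33* was at 277, 280.0 and 269 TPM in Fb-Epn and 27.5, 30.2 and 34.6 in Fb-Skn. *Il1rn*, the IL1 receptor antagonist, was at 165, 166 and 167 TPM in Fb-Epn and 0.72, 1.24 and 0.613 in Fb-Skn (7.45 ± 0.11, SE). The ligand, receptor and antagonist were all high in Fb-Epn without overlap, whereas *Il1a*, IL1 alpha, was lower, at 0.469, 0 and 0.309 against 8.22, 7.44 and 6.88 TPM. *Il1rl2*, the IL36 receptor, was also lower, at 91, 88 and 93 against 211, 226 and 225.

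Complement genes gave 14 higher and 5 lower of 24 tested, with a median log2 fold change of 1.02. *C7*, a component of the membrane attack complex, was at 9.41, 10.6 and 8.99 TPM in Fb-Epn with 0 counts in Fb-Skn, at least 112-fold higher. *C4b* was at 9.92, 9.14 and 10.1 TPM in Fb-Epn and 0.207, 0 and 0 in Fb-Skn, and the anaphylatoxin receptor *C5ar1*, a myeloid gene, at 18, 13.5 and 18.6 in Fb-Epn and 0.659, 0.862 and 0.855 in Fb-Skn. *C1r*, a protease of the classical pathway made by fibroblasts, was lower, with a log2 fold change of -0.53 ± 0.034 (SE). By role, 7 were higher and 2 lower of 10 classical and central components, and 7 were higher and 3 lower of the 14 others.

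Acute-phase and prostaglandin genes gave 15 higher and 11 lower of 34 tested. *Ptx3*, a secreted pattern recognition protein induced by inflammation, was at 691, 695 and 687 TPM in Fb-Epn and 25.6, 22.9 and 23 in Fb-Skn, a log2 fold change of 4.71 ± 0.062 (SE, edgeR adjusted p = 1.5e-16). *Ptges*, the inducible prostaglandin E synthase, was at 12.2, 9.27 and 12.7 in Fb-Epn and 122, 122 and 119.7 in Fb-Skn, a log2 fold change of -3.55 ± 0.10 (SE, edgeR adjusted p = 8.4e-13). *Ptger3*, a receptor of prostaglandin E2, was lower, at 1.76, 4.23 and 4.05 against 47.5, 47.4 and 52 TPM. The synthase and the receptor were high in Fb-Skn, and *Ptx3* in Fb-Epn, with no overlap. *Nfkbia*, the inhibitor of NF-kappaB, was lower in Fb-Epn (-1.31 ± 0.12, SE), and *Nfkbiz*, a related nuclear protein, was higher by 2.28 ± 0.084 (SE). *Vcam1*, a leukocyte adhesion molecule, was at 7.55, 7.12 and 7.76 TPM in Fb-Epn and 0.137, 0.105 and 0 in Fb-Skn.

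Interferon-stimulated genes gave 13 higher and 3 lower of 28 tested, with a median log2 fold change of 0.53, and 12 did not pass the test. Of the tested members 6 were DE genes in the higher direction and 1 in the lower. *Ifitm3*, an antiviral membrane protein, was higher by 0.86 ± 0.037 (SE), and *Gbp5*, a guanylate-binding protein, was lower, at 2.05, 2.04 and 1.52 TPM in Fb-Epn and 9.62, 13.1 and 10.9 in Fb-Skn. Of 19 tested MHC and antigen presentation genes 2 were higher and 3 were lower, below the shares over all tested genes. *B2m*, the light chain shared by class I molecules, was at 488, 515 and 518 TPM in Fb-Epn and 1055, 1022 and 988 in Fb-Skn, a log2 fold change of -1.15 ± 0.037 (SE, edgeR adjusted p = 1.9e-12). The 2 higher members belong to the rat RT1 family of near-identical genes, where the counting could split reads, and are uncertain.

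Hypoxia response and glycolysis genes gave 30 higher and 2 lower of 37 tested, with a median log2 fold change of 0.73. Hypoxia-inducible factors are known to activate these genes when oxygen is low. Of 18 tested hypoxia genes 15 were higher and 2 lower, and of 19 glycolysis genes 15 were higher and none was lower. Of the 2 lower calls 1 was small and did not hold with RLE factors or library size only as the scaling. *Adm*, adrenomedullin, a vasodilator peptide, was at 653, 637 and 656 TPM in Fb-Epn and 115, 114 and 112 in Fb-Skn, a log2 fold change of 2.37 ± 0.042 (SE, edgeR adjusted p = 3.3e-15). *Hk2*, an inducible hexokinase, was at 48.5, 48.8 and 48.3 TPM in Fb-Epn and 11.1, 10.8 and 10.3 in Fb-Skn. *Plod2*, a lysyl hydroxylase that shapes collagen cross-links, was at 729, 721 and 716 TPM in Fb-Epn and 156, 166 and 162 in Fb-Skn. The libraries did not overlap for these 3 genes, the only DE genes of the list. *Hk2* and *Plod2* lay just above the fold threshold. With glmTreat, which tests against that threshold, their log2 fold changes of 2.03 and 2.02 did not pass. *Slc2a1*, the glucose transporter that also marks perineurium, was at 143, 142 and 149 TPM in Fb-Epn and 64, 73.2 and 69.9 in Fb-Skn (0.93 ± 0.054, SE), and *P4ha2*, a prolyl hydroxylase of collagen, was lower (-0.33 ± 0.030, SE).

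The letters ACGTG, a form of the core that hypoxia-inducible factors bind, were searched on either strand. They were found in 19 of the 32 promoters of this list matched by symbol (59.4%) and in 5418 of all 27457 promoters (19.7%). Of the 26 higher members with a promoter, 16 held the letters. The window holds the letters on both strands where CACGTG occurs. The 150 bases before the start site are shown for a glucose transporter, a glycolytic enzyme and the lysyl hydroxylase, with the matching letters or their reverse complement CACGT in capitals. *Ldha*, the lactate dehydrogenase named here after its values were seen, was at 1706, 1712 and 1745 TPM in Fb-Epn and 707, 692 and 678 in Fb-Skn (1.17 ± 0.035, SE).
Slc2a1 (chr5:138002372-138002521, plus strand): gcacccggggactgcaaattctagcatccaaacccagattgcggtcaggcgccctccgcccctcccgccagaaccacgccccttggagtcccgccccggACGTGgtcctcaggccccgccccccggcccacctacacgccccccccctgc
Ldha (chr1:106507942-106508091, plus strand): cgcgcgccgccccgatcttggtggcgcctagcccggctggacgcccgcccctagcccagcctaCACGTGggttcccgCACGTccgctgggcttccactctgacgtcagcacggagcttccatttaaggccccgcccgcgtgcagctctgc
Plod2 (chr8:101964168-101964317, plus strand): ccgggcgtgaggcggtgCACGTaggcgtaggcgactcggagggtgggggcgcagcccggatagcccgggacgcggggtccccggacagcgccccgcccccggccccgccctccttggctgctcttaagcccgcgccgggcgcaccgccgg

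Genes of the cell cycle were higher in Fb-Epn as a group but by small factors. Of 44 tested S phase genes 39 were higher and 1 was lower (median log2 fold change 1.01), and of 48 genes of G2 and M phase 44 were higher and none was lower (median 0.94). *Top2a*, the topoisomerase of mitotic chromosomes, was at 35.2, 37.3 and 37.5 TPM in Fb-Epn and 12.5, 11.5 and 11.4 in Fb-Skn (1.49 ± 0.085, SE). *Mcm5*, a subunit of the replicative helicase, was at 22.1, 26.4 and 25.3 TPM in Fb-Epn and 6.32, 4.98 and 6 in Fb-Skn. The libraries of the 2 types lay apart for both, and *Rrm1*, a subunit of ribonucleotide reductase, was the exception, lower at 61.1, 61.5 and 60.3 against 122, 133 and 129 TPM. A list of cyclin D genes, their kinases, CDK inhibitors and related regulators gave 3 higher and 10 lower of 14 tested. Genes that drive entry into the cycle were among the lower, such as *Cdk6*, a kinase that D cyclins activate (-0.89 ± 0.11, SE). Of the 6 tested CDK inhibitors, which restrain the cycle, 3 were lower and 3 were higher. *Cdkn2a* was at 2.39, 1.73 and 4.3 TPM in Fb-Epn and 23.9, 28.7 and 39.4 in Fb-Skn, a log2 fold change of -3.58 ± 0.28 (SE, edgeR adjusted p = 6.0e-08). *Cdkn2b* was at 5.08, 3.37 and 4.53 in Fb-Epn and 18.3, 19.7 and 19.2 in Fb-Skn, and *Cdkn1a*, the p53 target p21, at 122, 123 and 118 in Fb-Epn and 263, 253 and 254 in Fb-Skn. *Cdkn1c*, an imprinted inhibitor, was higher by 1.15 ± 0.15 (SE), *Cdkn2c* by 1.13 ± 0.25 (SE) and *Cdkn1b* by 0.43 ± 0.055 (SE).

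The letters TTTCGCGC, a form of the E2F site, were found on either strand in 8 of the 37 S phase promoters matched by symbol (21.6%). Over all 27457 promoters they were found in 94 (0.342%). Of the 37 S phase genes 32 were higher in Fb-Epn, among them all 8 with the letters. Windows are shown for the helicase subunits *Mcm2* and *Mcm7*, named after their values were seen, and in *Mcm2* 2 overlapping matches on opposite strands form 1 run of capitals. *Mcm2* was higher by 1.04 ± 0.10 (SE) and *Mcm7* by 1.03 ± 0.079 (SE) on the log2 scale.
Mcm2 (chr4:122918095-122918244, minus strand): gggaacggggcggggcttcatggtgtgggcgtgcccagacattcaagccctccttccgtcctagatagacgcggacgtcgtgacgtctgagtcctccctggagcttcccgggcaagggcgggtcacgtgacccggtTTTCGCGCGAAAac
Mcm7 (chr12:22163179-22163328, minus strand): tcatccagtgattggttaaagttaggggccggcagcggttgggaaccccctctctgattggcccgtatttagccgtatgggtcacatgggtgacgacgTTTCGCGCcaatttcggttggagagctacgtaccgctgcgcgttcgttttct

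**Figure D5:**
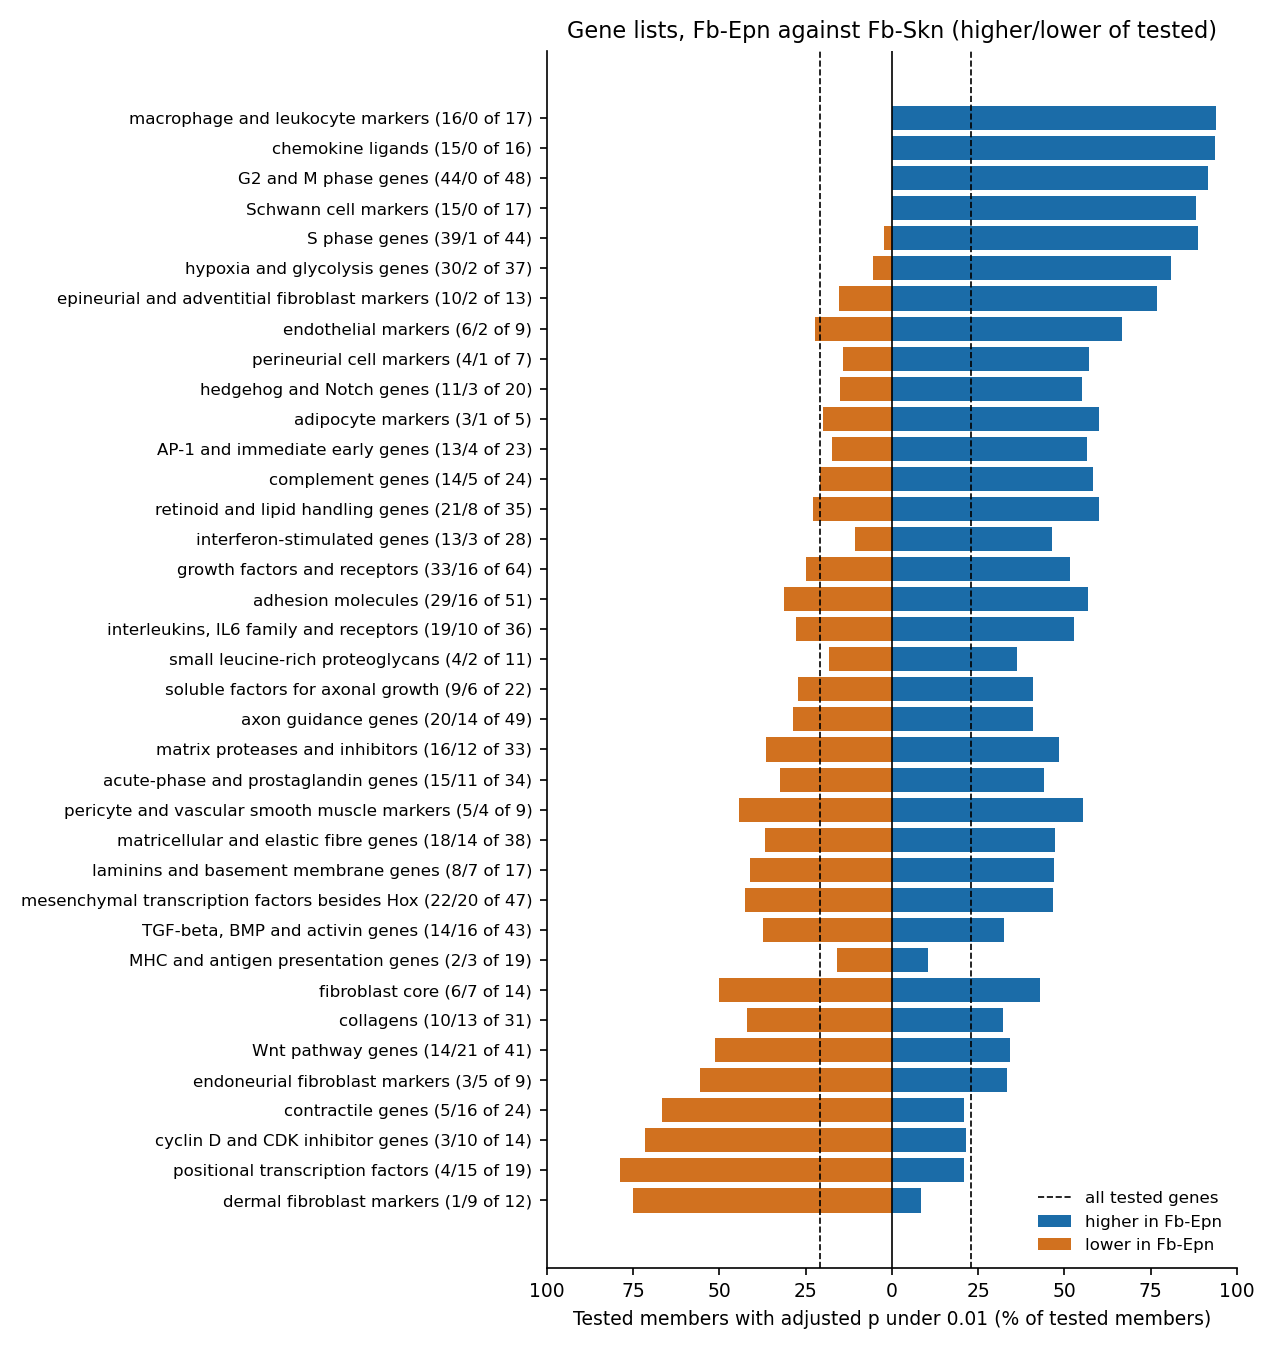
Bars show, for the 37 gene lists with at least 5 tested members, the percentage of tested members higher (blue, right) and lower (orange, left) in Fb-Epn at an adjusted p under 0.01, with the counts in the labels, and dashed lines mark the 23.0% and 20.9% of all tested genes. Macrophage markers, chemokines and cell cycle genes lie at the top, and dermal markers, positional transcription factors and the list of cyclin D and CDK inhibitor genes at the bottom.

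The study listed 29 soluble factors known to act on axonal growth, and this list was used as it stands. Of these 22 were tested, with 9 higher and 6 lower in Fb-Epn, and 1 of the lower calls was small and did not hold with RLE factors or library size only. *Bdnf*, a neurotrophin, was at 0.886, 0.581 and 0.714 TPM in Fb-Epn and 14.3, 13.3 and 14.9 in Fb-Skn, a log2 fold change of -4.43 ± 0.13 (SE, edgeR adjusted p = 6.6e-13). *Ntf3*, another neurotrophin, had 0 counts in all 6 libraries. *Ptn*, pleiotrophin, was at 3.5, 4.03 and 4.66 TPM in Fb-Epn and 0.14, 0 and 0.318 in Fb-Skn, a count ratio of 24.1 with a 95% counting interval of 7.98 to 119. *Fgf1*, a growth factor without a secretion signal, was at 8.64, 8.59 and 8.89 TPM in Fb-Epn and 1.39, 1.59 and 2.5 in Fb-Skn. *Lif*, a cytokine of the IL6 family that rises in injured nerve, was at 68.7, 69 and 65.2 TPM in Fb-Epn and 19.9, 18.1 and 18.5 in Fb-Skn (1.70 ± 0.071, SE). *Nrg1*, the ligand of ErbB receptors on Schwann cells, was at 13.7, 15.1 and 15.2 in Fb-Epn and 5.93, 5.76 and 5.75 in Fb-Skn. Each of *Ptn*, *Fgf1*, *Lif* and *Nrg1* was higher in every Fb-Epn library. *Gdnf*, *Hgf*, *Tgfb1* and *Igf1* did not pass the test, with log2 fold changes of -1.04 ± 0.43, 0.34 ± 0.28, -0.002 ± 0.063 and -0.057 ± 0.060 (SE).

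Among all 64 tested growth factors and receptors 33 were higher and 16 were lower, with a median log2 fold change of 0.56, and 21 were DE genes in the higher direction against 4 in the lower. *Btc*, betacellulin, an EGF family ligand, was at 5.24, 3.64 and 7.34 TPM in Fb-Epn and 0.0743, 0 and 0 in Fb-Skn, a count ratio of 179 with a 95% counting interval of 31.8 to 7118. *Angptl4*, which inhibits lipoprotein lipase, was at 24.4, 21.2 and 24 TPM in Fb-Epn and 0.68, 0.334 and 0.331 in Fb-Skn (5.48 ± 0.21, SE). *Fgfr2*, an FGF receptor, was lower, at 7.88, 7.83 and 9.2 against 33.4, 39.8 and 39.9 TPM (-2.32 ± 0.079, SE). *Btc* and *Angptl4* were high in Fb-Epn and the receptor was high in Fb-Skn, with no overlap.

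Axon guidance genes gave 20 higher and 14 lower of 49 tested, with a median log2 fold change of 0.18. *Nrp1* and *Nrp2*, co-receptors of class 3 semaphorins, were higher by 2.44 ± 0.044 and 1.93 ± 0.047 (SE), and the plexin *Plxnd1* by 2.24 ± 0.078 (SE). *Sema7a*, a membrane-anchored semaphorin, was at 20, 22.4 and 21.8 TPM in Fb-Epn and 1.75, 2.33 and 3.02 in Fb-Skn. *Slit2*, a repellent ligand of ROBO receptors, was lower, at 24.5, 23.7 and 22.5 against 80.9, 90 and 86.9 TPM (edgeR adjusted p = 3.3e-14). *Epha7*, an ephrin receptor, was at 4.18, 3.23 and 3.55 TPM in Fb-Epn and 26.7, 29.4 and 28.9 in Fb-Skn. The 3 receptors of the semaphorin system were higher in Fb-Epn, and *Slit2*, *Epha7* and the netrin gene given above were higher in Fb-Skn.

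Adhesion molecules gave 29 higher and 16 lower of 51 tested, with a median log2 fold change of 0.97. *Chl1*, a neural relative of *L1cam*, was at 7.12, 6.21 and 6.07 TPM in Fb-Epn with 0 counts in Fb-Skn, at least 106-fold higher, and *L1cam* was at 6.62, 6.37 and 6.55 TPM in Fb-Epn and 0.0939, 0.143 and 0.284 in Fb-Skn. Both are also made by Schwann cells, whose markers were higher in the same libraries, and the part of those cells in this result was not tested. *Itgb8*, an integrin chain that activates TGF-beta, was at 8.15, 6.46 and 6.54 TPM in Fb-Epn and 0.0526, 0.181 and 0.179 in Fb-Skn. *Cdh13*, a cadherin without a cytoplasmic part, was lower, at 41.5, 41.3 and 40.4 against 133, 142 and 137 TPM (-1.88 ± 0.034, SE).

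Immediate early genes respond within minutes to serum and handling, and 13 of 23 tested were higher and 4 lower, with a median log2 fold change of 1.13. *Egr3* was at 16.7, 16.9 and 19.1 TPM in Fb-Epn and 0.677, 0.543 and 0.461 in Fb-Skn, a log2 fold change of 4.80 ± 0.18 (SE, edgeR adjusted p = 1.5e-11). *Egr2*, which also drives myelination in Schwann cells, was at 45.2, 46.6 and 43.6 TPM in Fb-Epn and 4.37, 3.64 and 4 in Fb-Skn, and *Nr4a1* at 115, 114 and 124 in Fb-Epn and 20.6, 21.2 and 23 in Fb-Skn. All 3 were high in every Fb-Epn library. *Fosb*, an AP-1 subunit, was lower, at 13.4, 10.2 and 12.1 TPM in Fb-Epn and 24.8, 22.6 and 23.1 in Fb-Skn (-1.13 ± 0.11, SE).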

How the data were processed

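Poly(A)-selected, directional libraries of 3 Fb-Epn, 3 Fb-Skn and 3 Fb-Par samples had been sequenced as paired ends of 150 bp. According to the submitters' processing notes, FastQC 0.11.7, Trimmomatic 0.38, HISAT2 2.1.0, featureCounts 1.6.3 and the build rn6 were used. The authors deposited raw read counts per Ensembl gene, TPM values (counts over gene length, brought to the same total in each library) and FPKM values, which were not used. Whether counting used strand is not given in the sources used here, so reads of a gene and an overlapping antisense gene may not be separated. Columns of gene annotation other than name and position were not used.

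Samples were grouped by their titles. Counts were tested in edgeR 4.0.16 (R 4.3.3; filterByExpr, TMM factors, quasi-likelihood F-test, 1 model of all 9 libraries sharing an estimate of the spread, no covariates), with Benjamini-Hochberg adjustment over 13273 genes. Levels are TPM as deposited. In simulated counts over 13028 genes, 50 of 50 genes changed by each of 2-, 4-, 8- and 16-fold were recovered for this comparison and 3 unchanged genes were called. The changed genes were drawn from those with a mean of at least 50 counts, and all genes were given the same spread. The simulation therefore does not cover genes with few counts or with a spread of their own. Depth was 10084584 to 12310506 counts per library. Floors of 3 counts over the 3 libraries of a type and intervals at 95% (exact binomial) cover counting error only.

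The gene lists, the members and the tests were chosen with earlier results of these data known. Named genes were the 12 with the largest change in each direction among DE genes with a mean of at least 20 TPM in the higher type, up to 4 members per direction of each list with a mean of at least 5 TPM, the cell type markers and the soluble factors. Symbols were matched for 1216 of 1246 list entries. A few counted genes are not reported by themselves here. Promoter windows and mature miRNA sequences came from RefSeq (GRCr8), whose coordinates differ from those of rn6. Replicate numbers did not pair the libraries: deviations of same-numbered Fb-Epn and Fb-Skn libraries from their group means correlated at -0.041, -0.027 and 0.012. Alternatives were other scaling factors (RLE, upper-quartile, library size only), DESeq2 1.42.0, limma 3.58.1 on log2(TPM + 1) and log2(TPM + 0.1), other count filters, only the 6 libraries, each library left out, a replicate block, a test against the fold threshold and an adjusted p under 0.05.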

Additional observations from a re-analysis of the deposited data

How the results depend on the processing

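The number of genes past the adjusted p (5830) was 5178 to 5335 when 1 library was left out, and the DE genes numbered 831 to 850 higher and 285 to 306 lower, against 826 and 294. DESeq2 gave 5597 genes and 816 higher and 290 lower DE genes, and a fit of only the 6 libraries gave 5586 genes and 760 and 284. When genes needed 10 or more counts in each library, 226 were higher and 122 lower, a filter that by its construction removes genes at or near 0 in 1 type, such as *Alkal1*. There were fewer DE genes with limma on log2(TPM + 1) (436 and 144) and with glmTreat, which tests against the fold threshold itself (479 and 154, or 633 genes in all). With every gene of at least 1 count tested there were 1013 and 384. The share of called genes that were higher was 52.3%, and became 63.7% with library size only, 69% with limma on log2(TPM + 1) and 69.3% on log2(TPM + 0.1), so small differences depend on the scaling. With a replicate block 5580 genes passed, with 807 higher and 292 lower DE genes, and since the numbers do not pair the libraries (correlations from -0.041 to 0.012) this fit was not preferred.

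The main fit was compared with each alternative for all genes that the naming rule chose, not all of which are described. Genes that an alternative did not test were left out of its comparison. Of the values compared, 5399 were called in the same direction in both fits or in neither, whatever the sign of uncalled values. A further 208 lost the call, 16 gained it and 2 reversed. Of the 208, 152 were lost under glmTreat, which tests against the fold threshold itself. Both reversals were of 1 gene not named here, whose log2 fold change of -0.11 became 0.033 with limma at either pseudocount and then did not pass the test. The uncertain *RT1-S3* lost its call with any of 5 libraries left out, where its adjusted p in edgeR ran up to 0.045. Over list counts, 1348 stayed within 1.5 times the reported count and 128 did not. In the near-even lists of shared fibroblast, TGF-beta and MHC genes, the direction with more members changed or the counts became even under some scalings. Depth limits genes with under about 10 counts per library, and the 3 libraries per type bear on these cultures only.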
